A study of Homo sapiens with 8 samples.

Results

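The metallothionein genes MT1E, MT1F, MT1G, MT1M, MT1X and MT2A and the gene of their activator MTF1 were read from 8 RNA-seq libraries of the human osteosarcoma line 143B. These 7 genes were chosen by name from a table of 54174 gene symbols, of which 16590 had a value in at least 1 library. 143B is an established bone tumour line derived from HOS cells. Each of 4 NELL1 knockout libraries came from cells taken 48 h after transient transfection with a NELL1KO plasmid, and each of 4 vector control libraries from cells transfected for 48 h with the vector plasmid. All groups share the line, the serum-containing medium and the transfection reagent, and the labels describe no selection of transfected cells or clones. NELL1 encodes a secreted extracellular matrix protein, and the study's title asks how it acts on the matrisome, the genes of the extracellular matrix. Of the 7 genes, 6 had a value in all 8 libraries and 5 (MT1E, MT1F, MT1M, MT1X and MT2A) passed the filter of a mean deposited log2 value of at least 1. MTF1 lay below that filter and MT1G was blank in 3 knockout libraries.

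Metallothioneins are small cysteine-rich proteins that bind zinc, copper and cadmium through clusters of thiolates, and they buffer free zinc and react with oxidants. Their transcription follows metal load: MTF1, a zinc finger factor that senses zinc, binds short metal response elements upstream of the genes, and glucocorticoids and oxidative stress also induce several of them. MT2A is broadly expressed, while the MT1 genes are a set of related duplicates.

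The 6 metallothionein genes lie in 1 cluster on chromosome 16, and MTF1 lies at chr1:37809567-37859620 on the minus strand (GENCODE 29, GRCh38). From MT2A (chr16:56608199-56609497) the order along the plus strand is MT1E (chr16:56625475-56627112), MT1M (chr16:56632233-56633986), MT1F (chr16:56657694-56660698), MT1G (chr16:56666731-56668065) and MT1X (chr16:56682424-56684196). MT1G is transcribed from the minus strand. The first 75 coding bases, from the start codon and 5′ to 3′, are shown because they let a reader see how little separates the genes to which reads had to be assigned. Capitals mark bases that differ from MT2A at the same position.
MT2A: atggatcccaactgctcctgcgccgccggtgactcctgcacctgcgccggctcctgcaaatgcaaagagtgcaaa
MT1E: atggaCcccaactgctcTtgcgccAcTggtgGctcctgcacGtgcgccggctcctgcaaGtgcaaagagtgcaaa
MT1X: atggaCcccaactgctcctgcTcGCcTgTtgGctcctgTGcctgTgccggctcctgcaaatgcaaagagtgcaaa
MT1F: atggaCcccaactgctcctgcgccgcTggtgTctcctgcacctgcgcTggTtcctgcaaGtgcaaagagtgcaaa
MT1M: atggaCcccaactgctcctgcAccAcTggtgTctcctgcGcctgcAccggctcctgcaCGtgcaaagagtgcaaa
MT1G: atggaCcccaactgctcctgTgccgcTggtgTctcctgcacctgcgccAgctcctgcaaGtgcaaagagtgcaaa

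Over these 75 bases MT1F and MT1G each differed from MT2A at 6 positions, MT1E at 7, MT1M at 9 and MT1X at 10. Over the whole coding sequence of 183 bases, without the stop codon, identity between a pair of the 6 genes ranged from 88.5% for MT1F and MT1X to 95.1% for MT1G and MT2A. Whether a read could be told apart was measured on 1 transcript per gene. The measure was the share of that transcript's 50-base windows found in the sense sequence of a GENCODE 29 transcript of another gene. The other gene could lie on either chromosome strand. That share was 4.88% for MT2A, 5.34% for MT1E, 3.59% for MT1F and 7.05% for MT1M. It was 20.2% for MT1G and 45.1% for MT1X, whose windows also occur in the pseudogene MT1XP1. With 75-base windows MT2A and MT1F shared none and MT1X still shared 31.6%. How the authors assigned reads that match several genes is not given in the sources used here. By this measure the values of MT1X and MT1G are less certain than those of MT2A, MT1E, MT1F and MT1M. The share depends on the length of the transcript chosen, which was 406 bases for MT1G, 450 for MT1X and 690 to 829 for the others.

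RefSeq promoter sequences (GRCh38.p14) were matched for 3 of the 7 genes, MT2A, MT1X and MTF1. The 250 bases upstream of the RefSeq start are shown for MT2A and MT1X, on the plus strand and 5′ to 3′, because they carry the elements through which MTF1 is known to act. Capitals mark the core of the metal response element, searched as TGCACNC and TGCGCNC on both strands. The RefSeq starts lie downstream of the GENCODE 29 gene starts given above, so the MT2A window falls inside the GENCODE gene and the MT1X window overlaps it.
MT2A, chr16:56608334-56608583: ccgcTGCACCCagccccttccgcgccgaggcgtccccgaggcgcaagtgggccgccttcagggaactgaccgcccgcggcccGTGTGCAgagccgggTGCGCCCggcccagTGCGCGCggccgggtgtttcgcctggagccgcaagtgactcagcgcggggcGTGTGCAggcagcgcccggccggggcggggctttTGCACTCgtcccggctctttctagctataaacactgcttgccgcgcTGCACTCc
MT1X, chr16:56682220-56682469: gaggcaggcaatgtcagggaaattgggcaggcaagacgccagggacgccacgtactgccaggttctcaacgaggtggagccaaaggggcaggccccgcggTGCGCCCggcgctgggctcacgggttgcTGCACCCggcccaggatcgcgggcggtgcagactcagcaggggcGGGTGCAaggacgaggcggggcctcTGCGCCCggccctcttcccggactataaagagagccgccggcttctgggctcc

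The MT2A window held 7 matches to the metal response element core and the MT1X window held 4. Of 35116 promoter windows of the same length in the RefSeq table, 24.8% held at least 1 match, 0.37% at least 4 and 0.0313% at least 7. Each of these windows also held 1 match to the antioxidant response element core TGACNNNGC on either strand, found in 10.9% of all windows, and 1 TATAAA on the plus strand, found in 6.8%. No metal response element match overlapped either of them. The MTF1 window held none of these motifs. MT1H, a metallothionein gene of the same cluster that was blank in all 8 libraries, had 8 matches in its window, so the number of matches did not order the genes by deposited value.

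**Figure D1:**
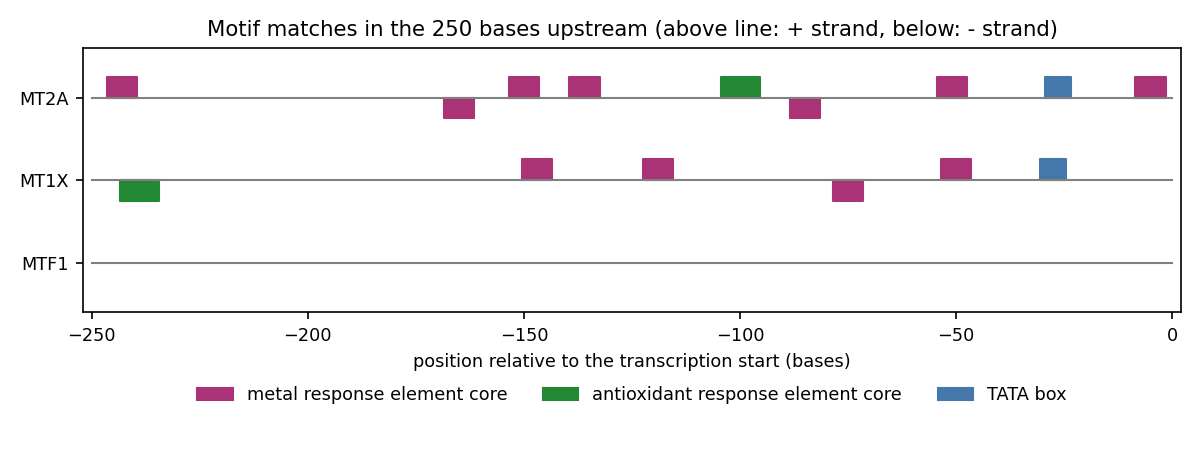
Matches to the metal response element core, the antioxidant response element core and TATAAA in the 250 bases upstream of the start of MT2A, MT1X and MTF1; the x axis is the distance from the start in bases, and blocks above and below each line are on the plus and minus strand. MT2A has 7 metal response element matches, MT1X has 4 and MTF1 has none.

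Facts of the whole table bear on these values as follows. The deposited log2 values had the same distribution in every library (median 1.77), which cannot show a shift of the whole transcriptome, and no read totals are given, so depth is unknown. NELL1 itself had log2 values between -6.97 and -4.53 in the libraries with a value and did not separate the groups (exact two-sided permutation test, p = 1), so it does not check the labels. Mesenchymal markers were present (control means of 10.8 for VIM, 5.78 for CD44 and 5.49 for SPARC on the log2 scale), while RUNX2 and COL1A1 lay near 0 at 0.20 and 0.06, and COL1A2 and THY1 were blank in some libraries. The leukocyte markers PTPRC and CD3E were blank in all libraries, while CD14 was blank in knockout libraries 1 and 2, lay between -4.90 and -4.22 in the controls and was -2.67 and -2.94 in knockout libraries 3 and 4. EPCAM was the only 1 of 5 epithelial markers with a mean of at least 1. VIM and NT5E were lower and SPARC higher in the knockouts (limma adjusted p = 0.0425, 0.0154 and 0.0294, or 0.132, 0.0752 and 0.155 with averaged knockout pairs), and the replicate block gave 0.0507 for VIM. The summed mesenchymal level was 10.89 to 10.97 in the controls and 10.34 to 10.79 in the knockouts, and the part of these markers in the results below was not tested. The knockout libraries fall into close pairs: the SD over genes of the difference between libraries was 0.12 for knockout 1 and 2, 0.13 for knockout 3 and 4, and 0.46 to 0.50 between those pairs, against 0.36 to 0.45 between a knockout and a control library. Nothing in the labels names a batch, so replicates 1 and 2 and replicates 3 and 4 are called replicate sets here. The members are given for all libraries and for each set.

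None of the 5 tested metallothionein genes passed the limma test of all 8 libraries (Benjamini-Hochberg adjusted p-value under 0.05 over 9016 genes), against 13.1% of all genes tested (7.02% higher and 6.1% lower). At an unadjusted p under 0.05, limma placed MT1E and MT2A higher and MT1F lower in the knockout libraries, 3 of 5 members, against 29.7% of all genes tested. The median log2 fold change of the 5 genes was 0.21, against 0.01 over all tested genes, with 4 genes above 0 and MT1F below. No gene of the 5 had control and knockout values free of overlap, a property shown by 22.9% of all tested genes (12.5% higher and 10.4% lower). The labels do not say that same-group libraries came from separate cultures, so these p-values measure the spread between libraries, which may be technical. In bulk RNA, fewer cells that express a gene and less RNA per cell cannot be told apart.

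MT2A, a broadly expressed metal-binding isoform, had the highest deposited values of the family, and its mean ranked 89 among 13943 genes that had no blank; whether levels are per length is unknown, so ranks describe the table. Control libraries 1 to 4 gave log2 values of 8.71, 8.70, 9.00 and 8.81, and knockout libraries 1 to 4 gave 9.32, 9.14, 8.91 and 9.00. Knockout libraries 1 and 2 were clearly above every control, knockout library 3 lay inside the control range, and knockout library 4 equalled the highest control to 2 decimals. Control libraries averaged 8.81 ± 0.14 and knockout libraries 9.09 ± 0.18 (SD over 4 libraries). The log2 fold change was 0.29 ± 0.11 (SE; 95% confidence interval 0.04 to 0.53; limma adjusted p = 0.115), a ratio of 1.22.

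MT1E, a metallothionein 1 isoform that neighbours MT2A in the cluster, showed the largest difference of the tested members. It stood at 6.33, 6.45, 6.68 and 6.50 on the log2 scale in control libraries 1 to 4 and at 7.25, 7.17, 6.68 and 6.55 in knockout libraries 1 to 4. Knockout libraries 1 and 2 were again above every control, whereas knockout library 3 equalled the highest control to 2 decimals and knockout library 4 lay inside the control range. The log2 fold change was 0.42 ± 0.17 (SE; 95% confidence interval 0.05 to 0.80; limma adjusted p = 0.127), a ratio of 1.34. MT1E and MT2A followed each other closely over the 8 libraries (Pearson's r = 0.93), the highest of the 10 pairwise correlations, which are given as descriptions over libraries that share the knockout pairs.

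MT1X, a metallothionein 1 isoform at the far end of the cluster, gave the same outline at smaller size. Its values were 5.06, 5.20, 4.92 and 4.94 (controls) and 5.47, 5.48, 5.09 and 4.92 (knockouts) on the log2 scale. Knockout libraries 1 and 2 lay above all controls and knockout libraries 3 and 4 lay inside the control range. The log2 fold change was 0.21 ± 0.14 (SE; 95% confidence interval -0.11 to 0.53; limma adjusted p = 0.357). Over the 8 libraries MT1X correlated with MT1E at r = 0.80 and with MT2A at r = 0.57.

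MT1F, another metallothionein 1 isoform, differed in the opposite direction. It was 3.53, 3.49, 3.28 and 3.20 in control libraries 1 to 4 and 3.13, 3.23, 3.02 and 2.98 in knockout libraries 1 to 4, so each knockout library was below the control of the same number. The groups overlapped only where knockout library 2 lay above control library 4. Control libraries averaged 3.37 ± 0.16 and knockout libraries 3.09 ± 0.11 (SD over 4 libraries). The log2 fold change was -0.29 ± 0.10 (SE; 95% confidence interval -0.50 to -0.07; limma adjusted p = 0.0868), a ratio of 0.821. With a term for replicate set in the limma model the adjusted p was 0.00966, in a fit that called 25.2% of all genes. With the replicate number as a block, a fit that called 10.2% of genes, it was 0.0574. MT1F was the one tested member whose correlation with MT2A (r = -0.58) and with MT1E (r = -0.41) was negative, and its correlation with MT1X was 0.06.

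MT1M, the isoform with the lowest deposited values among those tested, did not separate the groups. Its values were 2.15, 2.54, 2.38 and 2.39 (controls) and 2.49, 2.51, 2.23 and 2.42 (knockouts) on the log2 scale, with all knockout libraries inside the control range. The log2 fold change was 0.05 ± 0.10 (SE; limma adjusted p = 0.794), with a 95% confidence interval from -0.18 to 0.28 that excludes neither a small fall nor a small rise. MT1G, which encodes an isoform of restricted expression, had log2 values far below those of the tested members. It was -3.86, -4.01, -3.81 and -2.95 in the controls and -3.73 in knockout library 1, and it was blank in knockout libraries 2, 3 and 4. With 1 knockout value an exact two-sided permutation test gives p = 1 and cannot go below 0.2. How a blank arises is not stated, so its blanks were not read as a loss of the transcript.

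MTF1, the metal-sensing activator, showed no separation of the groups. Control libraries 1 to 4 gave log2 values of 0.46, 0.32, 0.42 and 0.44, and knockout libraries 1 to 4 gave 0.44, 0.38, 0.31 and 0.58. Knockout library 4 was the highest of all and knockout library 3 the lowest, and the other 2 lay among the controls. The difference of the means was 0.02 (exact two-sided permutation test, p = 0.8, smallest possible p = 0.0286). In the limma fit without the filter on low values, which called 8.3% of 13943 genes, the log2 fold change was 0.02 ± 0.08 (SE; 95% confidence interval -0.16 to 0.20; limma adjusted p = 0.889).

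**Figure D2:**
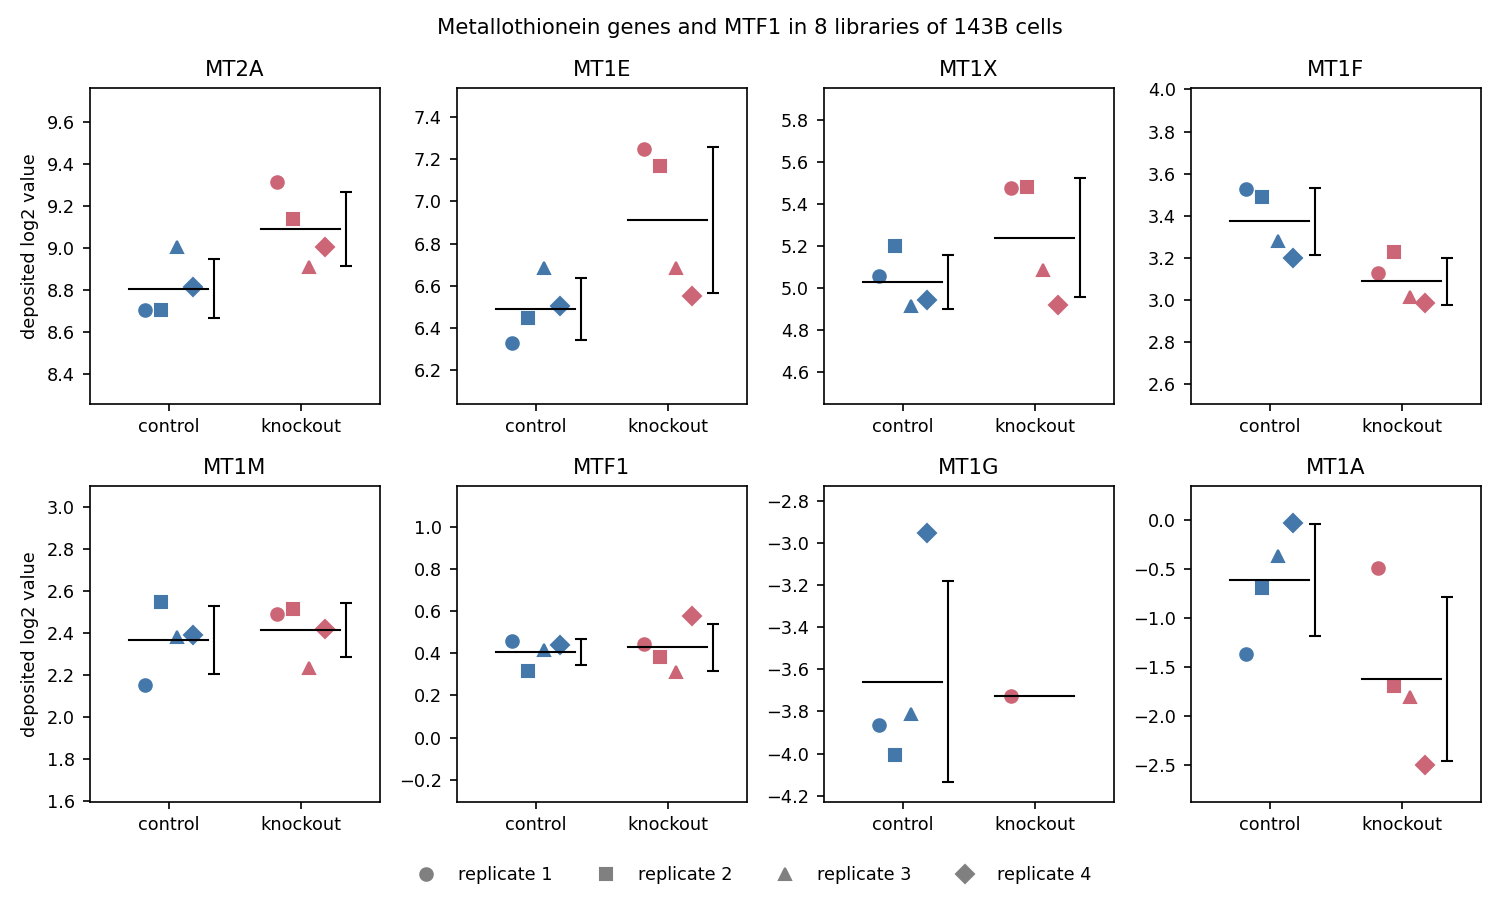
Deposited log2 value of the 7 genes and of MT1A in 4 control and 4 knockout libraries of 143B cells, 1 marker shape per replicate number, with the mean as a line and the SD as a bar beside it; each panel has its own y axis. Knockout replicates 1 and 2 of MT2A, MT1E and MT1X lie above all controls, MT1F is lower in each knockout library than in the same-numbered control, and MT1G has 1 knockout value.

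Of the 11 other metallothionein genes and pseudogenes listed, 9 were blank in all 8 libraries and MT1B had a value in 1 control library. MT1A, another metallothionein 1 gene, was -1.36, -0.69, -0.36 and -0.02 in the controls and -0.48, -1.69, -1.81 and -2.50 in the knockouts. Knockout libraries 2 to 4 lay below every control and knockout library 1 lay among the controls. Its log2 fold change in the fit without the filter was -1.01 ± 0.45 (SE; limma adjusted p = 0.197). The change was -0.06 in the first replicate set and -1.96 in the second, where MT1E and MT2A were near 0 (limma interaction without the filter, adjusted p = 0.0848).

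The replicate sets were then compared for the members. Within replicates 1 and 2 the log2 fold change was 0.82 ± 0.06 for MT1E, 0.52 ± 0.07 for MT2A, 0.35 ± 0.06 for MT1X and -0.33 ± 0.06 for MT1F (SE; limma adjusted p = 1.616e-04, 0.00113, 0.00347 and 0.00294). Of the 5 tested members, 4 passed in that set, against 59.7% of all genes, and MT1M (0.15) did not. Within replicates 3 and 4 the values were 0.03 ± 0.10 for MT1E, 0.05 ± 0.10 for MT2A, 0.07 ± 0.09 for MT1X, -0.24 ± 0.08 for MT1F and -0.06 ± 0.09 for MT1M (SE), and 0 of 5 passed (limma adjusted p from 0.0601 to 0.865; MT1F alone had an unadjusted p under 0.05, of 0.0213), against 33.1% of all genes. MT1F had negative values in both sets.

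The interaction of knockout and replicate set tests that difference itself. The change in replicates 1 and 2 exceeded that in replicates 3 and 4 by 0.80 ± 0.12 for MT1E and by 0.47 ± 0.12 for MT2A (SE; limma adjusted p = 0.00111 and 0.0145). It was not past the threshold for MT1X, MT1M and MT1F (limma adjusted p = 0.0701, 0.323 and 0.466). So 2 of 5 members passed, a share close to the 41.3% of all genes that passed. Residual spread in this fit and in the fits within sets comes from pairs of libraries of the same group and set alone. The knockout pairs are close, and the closeness of the control pairs was not measured. With each knockout pair averaged to 1 library, a fit that called 1.2% of genes, the limma adjusted p-value of the 5 members ranged from 0.237 to 0.868.

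The controls differed between the sets as well. MT1E and MT2A were lower by 0.21 and 0.20 log2 units in controls 1 and 2 than in controls 3 and 4, the reverse of the knockout libraries, where they were higher by 0.59 and 0.27 in replicates 1 and 2. MT1F was higher in replicates 1 and 2 in both groups, by 0.27 in the controls and 0.18 in the knockouts. MT1X was likewise higher in replicates 1 and 2 in both groups, by 0.20 and 0.48.

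**Figure D3:**
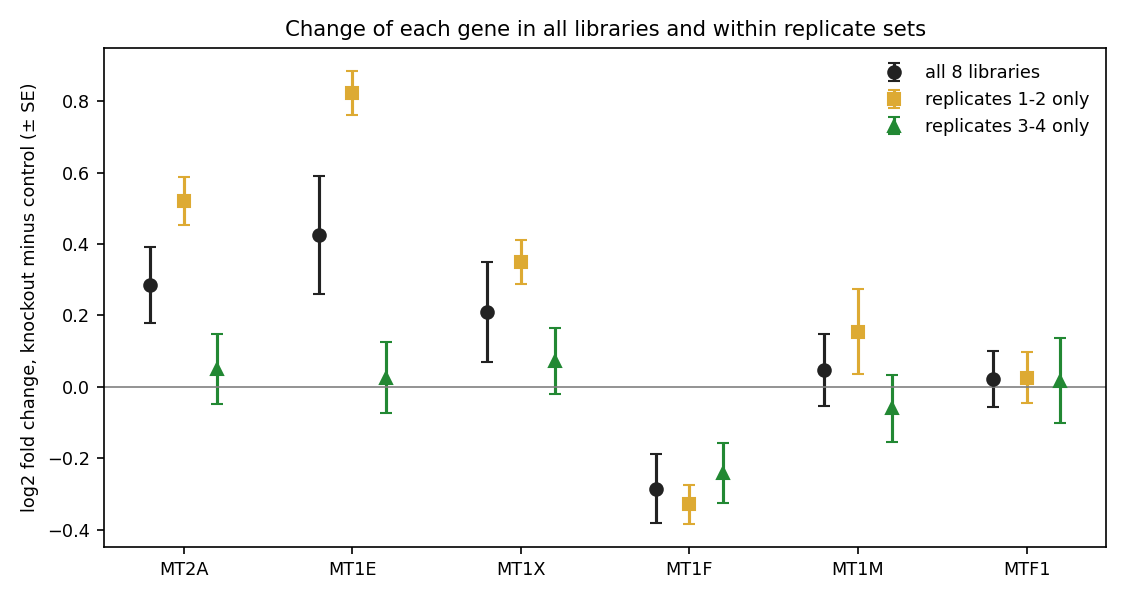
Log2 fold change (knockout minus control, ± SE from limma) of 6 genes in all 8 libraries, in replicates 1 and 2 and in replicates 3 and 4; MTF1 comes from fits without the filter on low values. MT1E, MT2A and MT1X are well above 0 in replicates 1 and 2 and near 0 in replicates 3 and 4, MT1F is below 0 in both sets and MTF1 is near 0 throughout.

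Differences between members within a library are free of any constant added to all log2 values of that library. The log2 value of MT2A exceeded that of MT1F by 5.18 to 5.72 in the controls and by 5.90 to 6.19 in the knockouts. MT1E exceeded MT1F by 2.80 to 3.40 in the controls and by 3.57 to 4.12 in the knockouts. MT1X exceeded MT1F by 1.53 to 1.74 in the controls and by 1.93 to 2.34 in the knockouts. For all 3 genes the groups did not overlap, and the mean distance widened by 0.57, 0.71 and 0.50 log2 units. MT1F enters each of these distances and was itself lower in the knockouts (log2 fold change -0.29). MT1M lay below MT1F in every library, and its difference to MT1F also did not overlap between the groups. The log2 fold change of MT1M itself was 0.05, so the separation is not particular to the 3 genes above. These distances were looked at after the values had been seen and no test of them is reported. Of the 9011 tested genes outside the family, 30.1% were likewise farther above MT1F in every knockout library than in any control.

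**Figure D4:**
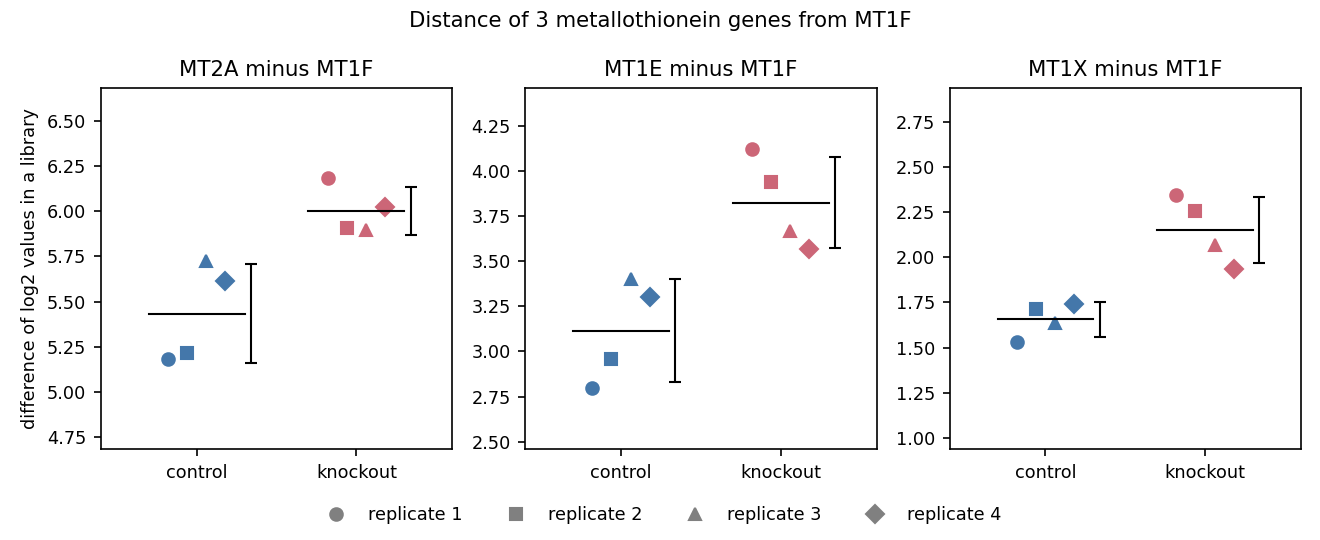
Difference of log2 values within a library between MT2A, MT1E or MT1X and MT1F, for 4 control and 4 knockout libraries, with mean (line) and SD (bar). In each panel every knockout library lies above every control library; MT2A minus MT1F is 5.18 to 5.72 in the controls and 5.90 to 6.19 in the knockouts.

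Genes that handle the same metals were described from lists. Of 5 tested zinc exporters of the SLC30 family, 0 passed the limma test of all libraries, against the 13.1% of all genes given above. SLC30A9 alone had an unadjusted p under 0.05, against 29.7% of all genes. SLC30A1, the plasma membrane exporter that MTF1 is known to induce with the metallothioneins, was 1.39 ± 0.09 in control and 1.62 ± 0.26 in knockout libraries (SD over 4 libraries; limma adjusted p = 0.276). The first replicate set gave a log2 fold change of 0.41 and the second one of 0.03 (limma interaction adjusted p = 0.0354), an interaction that 41.3% of all genes passed. SLC30A9 had a log2 fold change of -0.53 (limma adjusted p = 0.105, or 0.0435 with the replicate block and 0.209 with averaged knockout pairs).

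Of 9 tested zinc importers of the SLC39 family 1 passed, close to the share of all genes (13.1%): SLC39A13, a transporter of intracellular membranes. Control libraries averaged 3.00 ± 0.09 and knockout libraries 2.61 ± 0.14 (SD over 4 libraries), a difference of -0.39 on the log2 scale (limma adjusted p = 0.0240, or 0.0613 with the replicate block and 0.122 with averaged knockout pairs). The values were 2.90, 2.96, 3.12 and 3.01 in the controls and 2.72, 2.72, 2.54 and 2.45 in the knockouts, with no overlap, and the change was -0.21 in the first replicate set and -0.57 in the second (limma interaction adjusted p = 0.0162). SLC39A14, an importer of zinc and iron, stood at 6.19 ± 0.19 and 6.12 ± 0.17 (SD over 4 libraries; limma adjusted p = 0.736). SLC39A10, which MTF1 is known to repress, had a log2 fold change of -0.16 (limma adjusted p = 0.308). Limma picked 3 of the 9 at an unadjusted p under 0.05, against 29.7% of all genes. Besides SLC39A13 these were SLC39A7 and SLC39A6, with log2 fold changes of -0.27 and 0.19 (limma adjusted p = 0.127 and 0.0855). With the term for replicate set 3 of the list passed, in a fit that called 25.2% of all genes.

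Of 9 tested copper handling genes 1 rose, against 7.02% of all genes: SOD1, the copper and zinc superoxide dismutase. Its log2 value was 6.65 to 6.71 in the controls and 6.94 to 7.14 in the knockouts, higher by 0.38 ± 0.07 (SE; limma adjusted p = 0.0117, or 0.0869 with averaged knockout pairs), and the replicate sets gave 0.30 and 0.45. ATOX1, the copper chaperone, was 6.06 ± 0.03 and 6.24 ± 0.07 (SD over 4 libraries) without overlap and did not pass (limma adjusted p = 0.0864).

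Of 7 genes tied to MTF1 by general knowledge, all were tested, 1 rose and 1 fell, against 7.02% and 6.1% of all genes. CSRP1, a cytoskeletal LIM protein gene, rose by 0.34 log2 units (limma adjusted p = 0.0123, or 0.0947 with averaged pairs), with 0.40 and 0.28 in the replicate sets. NDRG1, which is also induced by hypoxia, fell by 1.17 log2 units, between means of 5.80 ± 0.38 and 4.63 ± 0.44 (SD over 4 libraries; limma adjusted p = 0.0199, or 0.0941 with averaged pairs), with -1.04 and -1.30 in the replicate sets. GCLC, a glutathione synthesis enzyme, had a log2 fold change of 0.12 and SELENOH, a selenoprotein gene, of 0.07 (limma adjusted p = 0.324 and 0.577). The list's median log2 fold change was 0.12, against 0.01 over all tested genes.

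Other inducers of metallothioneins gave the following counts. Of 8 tested glucocorticoid response genes 0 passed by limma, against 13.1% of all genes tested. An unadjusted p under 0.05 was found for 4 of the 8, against 29.7% of all genes tested. These were ANGPTL4 (-0.80), TSC22D3 (-0.31), KLF9 (-0.27) and DUSP1 (0.91), with the log2 fold change in brackets. DUSP1, a phosphatase gene, had 1.71 in the first replicate set and 0.12 in the second (limma interaction adjusted p = 0.00138). ANGPTL4 had -1.31 and -0.30 (limma interaction adjusted p = 0.0215). That interaction passed for 41.3% of all genes. TSC22D3 passed with the replicate block (limma adjusted p = 0.0467), a fit that called 10.2% of all genes, and not with averaged pairs (0.213). With the term for replicate set 3 genes of the list passed, in a fit that called 25.2% of all genes. They were ANGPTL4, TSC22D3 and KLF9, all lower in the knockouts (limma adjusted p = 0.0379, 0.0272 and 0.0336). FKBP5, a standard glucocorticoid target, had a log2 fold change of 0.03 and NR3C1, the receptor, of 0.07 (limma adjusted p = 0.802 and 0.618). Of 12 tested heat shock genes 2 rose, against 7.02% of all genes. They were HSPE1 and HSPH1, higher by 0.47 and 0.43 log2 units (limma adjusted p = 0.00815 and 0.00474, or 0.0764 and 0.0624 with averaged pairs), while the stress-inducible HSPA1A and HSPA1B had log2 fold changes of -0.06 and -0.03 (limma adjusted p = 0.802 and 0.833). HSPE1 encodes the mitochondrial co-chaperonin and HSPH1 a cytosolic chaperone of the HSP110 class. Limma picked 5 of the 12 at an unadjusted p under 0.05, against 29.7% of all genes tested. Besides HSPE1 and HSPH1 these were HSP90AA1, HSPB1 and HSF1. Their log2 fold changes were 0.40, 0.16 and -0.22 (limma adjusted p = 0.0987, 0.111 and 0.100).

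Genes that flank the metallothionein cluster were read as well. Of 6 tested flanking genes 0 passed by limma after adjustment, against 13.1% of all genes. NUP93 alone had an unadjusted p under 0.05, against 29.7% of all genes. HERPUD1, an endoplasmic reticulum stress gene, had a log2 fold change of -0.42 (limma adjusted p = 0.170, or 0.279 with averaged knockout pairs). Its change was -0.18 in the first replicate set and -0.67 in the second (limma interaction adjusted p = 0.00903, an interaction that 41.3% of all genes passed). It was the 1 flanking gene that passed with the term for replicate set (limma adjusted p = 0.0239), in a fit that called 25.2% of all genes. OGFOD1 and NUDT21 had log2 fold changes of 0.07 and 0.05 (limma adjusted p = 0.526 and 0.688). NUP93, a nuclear pore gene, had knockout values above all controls, with a log2 fold change of 0.14 (limma adjusted p = 0.151).

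**Figure D5:**
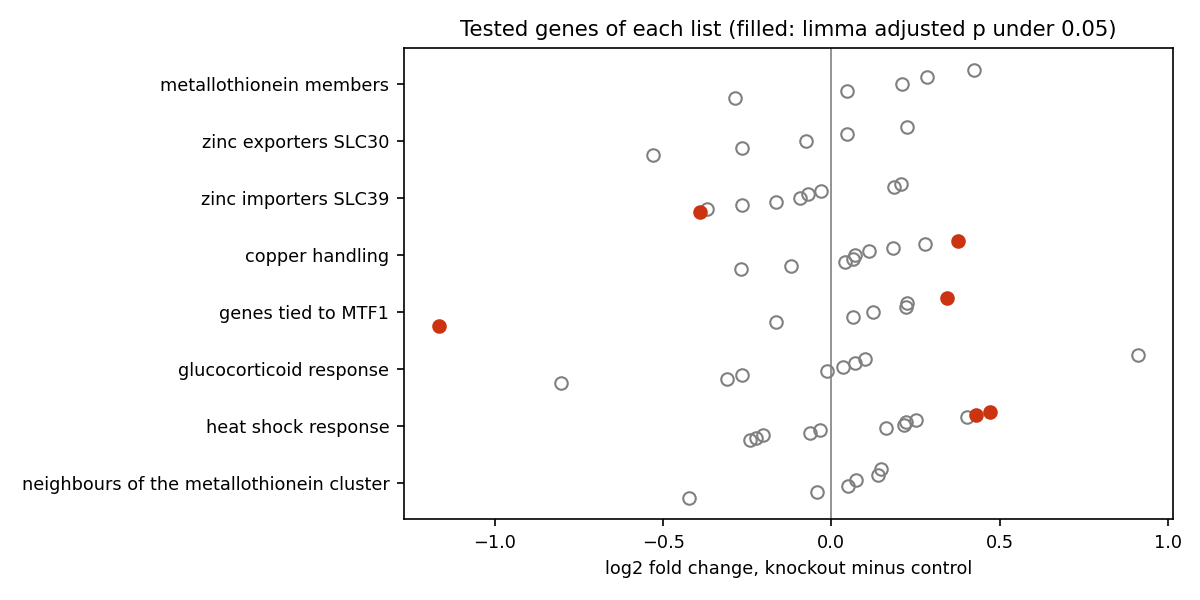
Log2 fold change (knockout minus control, all 8 libraries) of each tested gene in 8 lists, filled where the limma adjusted p-value is under 0.05. No metallothionein, zinc exporter, glucocorticoid response or flanking gene is filled; the filled genes are SLC39A13, SOD1, CSRP1, NDRG1, HSPE1 and HSPH1.

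The genes whose pattern over the 8 libraries was most like the mean of the 5 tested metallothioneins were YRDC (Pearson's r = 0.99), RPS12, SPTSSA, PDCD2L and B9D1 (r = 0.98 each). None of these 5 lies on chromosome 16, and none passed the limma test of all libraries (adjusted p from 0.254 to 0.428). For MTF1 the closest were RPS2 (r = 0.86), TAF3 (r = 0.84) and DNAJB6 (r = 0.82). These correlations over 8 libraries, which include the close knockout pairs, are given as descriptions.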

How the data were processed

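Total RNA of 8 libraries (4 per group) was extracted with TRIzol and made into stranded libraries with an Illumina total RNA kit, per the labels' protocols. The authors deposited 1 table of log2 values per gene symbol; base 2 was inferred from the range (-10.5 to 12.1), and identical distributions show quantile normalization. The submitters' processing notes list bcl2fastq, Partek 7.0 and GRCh38 without a role. The unit before the logarithm, aligner, counting program and rule for blank cells are not given in the sources used here, so whether levels are per length is unknown and no counting error can be given. Blank cells were treated as missing.

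Knockout minus control was fitted with limma 3.58.1 (R 4.3.3; no trend, no covariate) on 9016 genes with 8 values and a mean of at least 1, with Benjamini-Hochberg adjustment over all of them and a threshold of 0.05. On simulated data with 9016 genes and 200 changed by 1 log2 unit, 89.5% were called. Of all genes called there, 6.28% were false calls. The simulated noise was independent between libraries, without the close knockout pairs of the real data. Both shares therefore may not hold for the real libraries. Recovery of differences smaller than 1 log2 unit, such as those of the tested members, was not tested. Members and lists were chosen with earlier results of these data known. From each list, called genes of largest change (at most 3) were to be named; other list genes named were chosen after their values were seen. Like-pattern genes were the 5 (MTF1: 3) with the highest Pearson correlation. Replicate numbers may pair the libraries, which was not established. Deviations of same-numbered libraries correlated at 0.20 to 0.29, and 4 of 8 libraries correlated best with their own number. Alternatives covered filters, scaling, pseudocount, variance model, block, replicate sets and leaving out libraries. Motif and window searches used exact matches. Some listed genes are not reported here.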

Additional observations from a re-analysis of the deposited data

Results flagged for a closer look

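The change of MT1E was larger in replicates 1 and 2 than in replicates 3 and 4 by 0.80 log2 units (limma interaction, adjusted p = 0.00111), and that of MT2A by 0.47 (adjusted p = 0.0145). Both genes were picked out because the difference between replicate sets passed its own test, as it did for 41.3% of all genes. MT1G in control library 4 (-2.95) stood above the other 3 controls (-4.01 to -3.81) but was not past the limit set for a single library apart from its group.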

How the results depend on the processing

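Against 1183 called genes, a mean of at least 3 gave 729, an adjusted p under 0.01 gave 272, a term for replicate set gave 2274, averaged knockout pairs gave 108, replicates 1-2 gave 5380, replicates 3-4 gave 2987 and leaving out 1 library gave 391 to 1353. With the replicate block the log2 fold change of MT2A was 0.29 (limma adjusted p = 0.187), and the block changed no call of a member. The 5 tested members stayed short of the threshold in every fit that left out 1 library, under the filters and under the scalings tried. They passed it in replicates 1-2 alone for MT1E (0.82), MT2A (0.52), MT1X (0.35) and MT1F (-0.33), and with the set term for MT1F (-0.29). When 1 library was left out the log2 fold change was 0.31 to 0.54 for MT1E, 0.21 to 0.35 for MT2A, 0.13 to 0.32 for MT1X, -0.34 to -0.23 for MT1F and -0.03 to 0.11 for MT1M. MT1M was below 0 in replicates 3-4 alone (-0.060) and without control 1 (-0.025). MTF1, fitted without the filter in alternatives added after seeing the data, was -0.0043 after a further quantile normalization and, when 1 library was left out, -0.028 to 0.06 (-0.028 without knockout 4, -0.0083 without control 2). MT1G moved between -0.18 and 0.17 when 1 control was left out (0.17 without control 4). MT1M and MTF1 have no value with a mean of at least 3. The causes of these changes were not tested, and without depth no detection limit can be given for MT1G.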
